A study of Mus musculus with 16 samples.

Results

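The mitosis and G2/M genes are 50 genes whose products carry a cell from the end of DNA replication through chromosome segregation to cytokinesis. They were taken by gene symbol from a list of names, out of the 22114 protein-coding genes in each of the count tables of the study. Each of the 50 symbols was found once in both tables. All 50 passed the filter on low counts in both, and the smallest count of any of them in a library was 225 in one experiment and 103 in the other.

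RNA was captured by its poly-A tail from pools of sorted DN3 thymocytes, the CD4 and CD8 double-negative T-cell progenitors that carry CD25, of mice on a C57BL/6 background. In the first experiment, mice were heterozygous for a doxycycline-inducible histone H2B-GFP knock-in (TetOP-H2B-GFP) and carried an Lmo2 transgene driven by the CD2 promoter (Lmo2Tg), which is active in T-lineage cells. After 6 weeks of doxycycline and 2 weeks without it, DN3 cells that still held the label (GFPhi, 3 libraries) were sorted from DN3 cells that had diluted it by dividing (GFPlo, 3 libraries), so that both groups carried the transgene. In the second experiment, total DN3 cells came from 6-week-old mice. They were wild-type mice (WT, 3 libraries) and mice lacking the cyclin-dependent kinase inhibitor p21 in all cells (p21-/-, 2 libraries analysed here). The others were Lmo2Tg mice (2 libraries, called a and b here) and Lmo2Tg;p21-/- mice (2 libraries). Letters replace the numbers of the Lmo2Tg columns because the descriptions of 2 GFPlo samples bear the same names. The comparisons ask how the genes of cell division stood in label-retaining against label-diluted cells, and how the transgene and the loss of p21 each moved them in DN3 cells as a whole.

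Genes of this group are transcribed in waves that peak in G2 and M phase, so that their level in a bulk sample follows the share of dividing cells. Cyclin B and its kinase CDK1 drive entry into mitosis, Polo-like and Aurora kinases build the spindle and mature the centrosomes, and the anaphase-promoting complex (APC/C) with its activator CDC20 degrades securin and cyclin B once every kinetochore is attached. In the thymus, DN3 cells that have rearranged their T-cell receptor beta gene divide rapidly before they become double-positive cells. In these bulk libraries, fewer cells in G2 or M and less RNA per cell cannot be told apart.

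Total counts ranged from 26861394 to 31106213 per GFPhi or GFPlo library and from 13864936 to 16837667 per genotype library, so that even the least abundant gene of the group was counted over 100 times everywhere. All 13 DN3 markers reached at least 1 CPM (a gene's counts per library size, scaled by TMM) in every group, with Il2ra and Ptcra, the CD25 and pre-T-cell receptor genes, among them. Their summed level was 12300 to 12600 CPM in GFPhi and 10700 to 11500 in GFPlo libraries. Cdkn1a, which encodes p21, stood at 36.5, 37.5 and 49.0 CPM in WT, 14.3 and 17.7 in p21-/-, 32.8 and 26.3 in Lmo2Tg, and 4.35 and 3.50 in Lmo2Tg;p21-/- libraries. Lmo2 was at 41.4 to 107 CPM in the genotype libraries labelled with the transgene and at most 0.306 CPM in those without it. GFPhi replicate 3 stood apart from the other GFPhi libraries, with Cdkn1a at 6.56 CPM against 35.8 and 29.9, Lmo2 at 285 CPM against 53.8 and 29.5, and double-positive thymocyte markers at 77.2 CPM against up to 340. Medians and calls of the group that rest on it are given with and without it.

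Promoters of G2/M genes often hold a cell cycle homology region (CHR), bound by the MuvB complexes, and CCAAT boxes, bound by NF-Y. In the 300 bases around the gene start in the RefSeq table (GRCm38.p6; 250 bases before and 50 after), 42 of the 50 genes had a window. A CHR, searched on both strands as TTTGAA, its common form, and as the variant TTCGAA, was present in 34 of these 42 (81.0%), against 19.5% of the 15891 genes of the count tables with a window and 14.6% of 41 S phase genes. CCAAT, searched on both strands, was present in 32 (76.2%), against 42.1% of all genes and 63.4% of S phase genes. TTCGAA reads the same on both strands and was counted once, and a CHR and a CCAAT can share at most 1 letter. In all, 29 genes (69.0%) held both, against 7.97% of all genes and 9.76% of S phase genes. The match nearest to the start lay at a median of 6 bases after it for the CHR and 22 bases before it for CCAAT. These are matches of letters in a window and say nothing of binding. The windows of Mki67 (chr7:135716330-135716629, minus strand), Cdk1 (chr10:69352863-69353162, minus strand), Plk1 (chr7:122159185-122159484, plus strand) and Aurka (chr2:172370521-172370820, minus strand) are shown because they hold both motifs in genes whose values are given in full. They run 5′ to 3′ along the gene, and capitals mark each CHR and each CCAAT box, which reads ATTGG where it lies on the other strand.
Mki67: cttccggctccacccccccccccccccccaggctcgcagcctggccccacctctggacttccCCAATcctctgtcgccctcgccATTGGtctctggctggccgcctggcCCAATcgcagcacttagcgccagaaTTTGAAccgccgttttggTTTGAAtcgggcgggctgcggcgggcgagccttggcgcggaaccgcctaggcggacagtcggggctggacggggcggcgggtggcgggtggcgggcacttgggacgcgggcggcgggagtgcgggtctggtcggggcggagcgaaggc
Cdk1: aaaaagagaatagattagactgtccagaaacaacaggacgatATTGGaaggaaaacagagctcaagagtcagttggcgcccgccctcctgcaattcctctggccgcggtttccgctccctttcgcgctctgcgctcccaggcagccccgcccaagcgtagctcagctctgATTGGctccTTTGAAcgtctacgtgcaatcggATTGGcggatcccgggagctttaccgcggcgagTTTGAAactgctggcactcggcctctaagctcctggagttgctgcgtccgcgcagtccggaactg
Plk1: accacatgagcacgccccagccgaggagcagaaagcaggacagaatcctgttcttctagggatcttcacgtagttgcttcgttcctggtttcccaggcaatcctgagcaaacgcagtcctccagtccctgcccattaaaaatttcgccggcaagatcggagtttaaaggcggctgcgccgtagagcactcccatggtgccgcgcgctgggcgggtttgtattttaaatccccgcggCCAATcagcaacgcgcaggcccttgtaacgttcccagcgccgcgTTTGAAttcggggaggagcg
Aurka: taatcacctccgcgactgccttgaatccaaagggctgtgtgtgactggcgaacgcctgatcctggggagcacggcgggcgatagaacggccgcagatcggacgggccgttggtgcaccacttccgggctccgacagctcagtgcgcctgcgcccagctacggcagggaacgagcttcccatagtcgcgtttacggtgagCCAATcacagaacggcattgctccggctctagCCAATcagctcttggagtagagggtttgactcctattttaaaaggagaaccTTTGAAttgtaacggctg

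No CHR was matched in the windows of Birc5, Ccnb1, Cenpe, Mad2l1, Nek2, Nuf2, Nusap1 and Pttg1. Pttg1, which encodes securin, held neither motif, like Birc5, Mad2l1, Nuf2 and Nusap1. Cdc25b, which encodes a phosphatase that activates CDK1, held 1 of each, like Ckap2, Espl1, Kif11, Kif23, Plk1, Prc1 and Racgap1.

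Per length of transcript, the highest levels were those of the proliferation marker Mki67 and of the DNA topoisomerase Top2a, in both experiments. Mki67 averaged 96.5 RPKM (CPM per kilobase of exon) in GFPhi, 123 in GFPlo and 124 in WT libraries, and Top2a averaged 93.8, 115 and 110 RPKM. The lowest was Cdc25c, a phosphatase that activates CDK1, at 2.51, 3.40 and 2.64 RPKM. Cdc25b was the third highest in GFPlo libraries at 81.0 RPKM and averaged 17.0 RPKM in WT libraries. These tables were counted and scaled separately, so the values of different experiments stand side by side without a test.

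**Figure D1:**
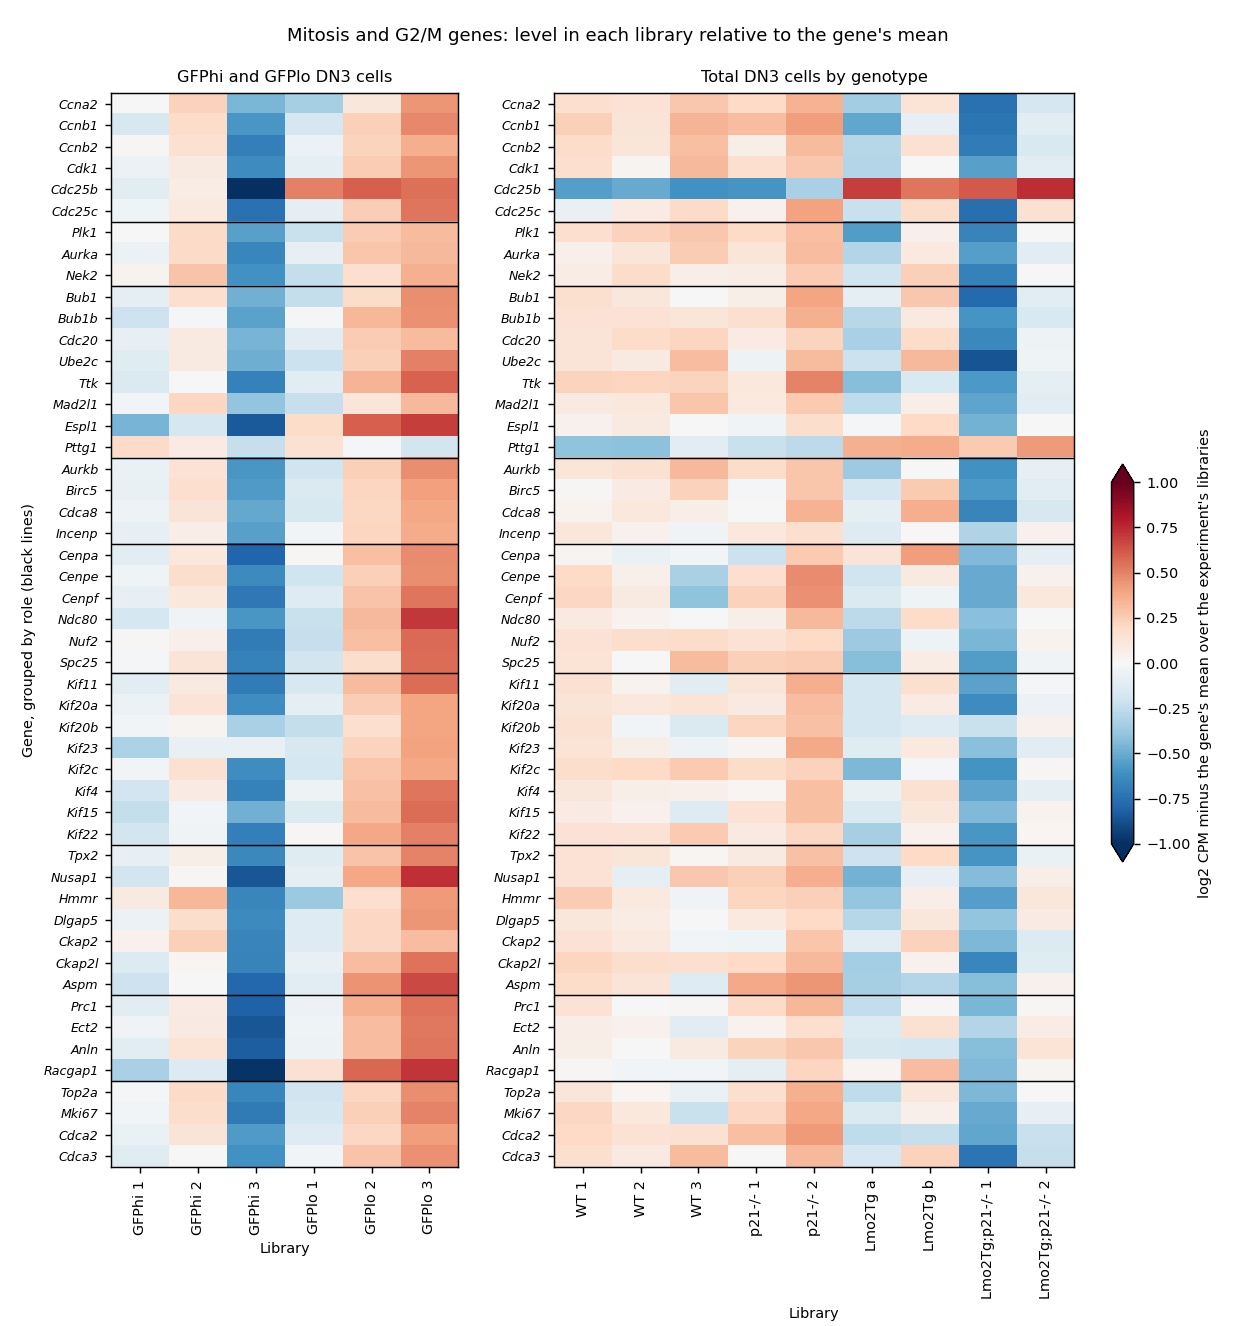
Level of each of the 50 genes (rows, grouped by role) in each library (columns), as log2 CPM minus the gene's mean over the libraries of its experiment; red is higher and blue lower than that mean. GFPhi replicate 3 was lowest in 49 genes, GFPlo replicate 3 highest in 48, Lmo2Tg;p21-/- replicate 1 lowest in 47 and p21-/- replicate 2 highest in 36, while the rows of Cdc25b and Pttg1 run the other way in the genotypes.

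In GFPhi against GFPlo cells, 49 of the 50 genes had a lower mean in GFPhi cells, with a median log2 fold change of -0.36 against 0.02 over all 11581 genes tested. The spread between libraries was as large as this difference for most of them. Only Espl1 passed an adjusted p of 0.05 (edgeR quasi-likelihood fit, Benjamini-Hochberg adjusted), and no gene of the group passed in the other direction. Over all genes tested, 9.49% were called lower and 5.37% higher, so the share of the group that was called (1 of 50) was below the background. Ranges of the groups did not overlap for 5 of the 50 genes (Bub1b, Cdc25b, Espl1, Kif22 and Racgap1, all lower in GFPhi), against 21.7% of all genes. Unadjusted p was under 0.05 for 7. The share of all genes with an unadjusted p under 0.05 was not counted in any comparison.

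The cyclin-CDK1 engine was measured by 6 genes, with a median of -0.37 and none called. Ccnb1, which encodes cyclin B1, stood at 28.2, 35.8 and 21.1 CPM in GFPhi and 28.0, 37.1 and 44.0 CPM in GFPlo libraries. Cdk1, its kinase partner, stood at 86.2, 95.7 and 58.1 CPM in GFPhi and 84.0, 107 and 122 CPM in GFPlo libraries. For both genes GFPhi replicates 1 and 2 lay within the GFPlo range, and GFPhi replicate 3 lay below it. Their log2 fold changes were -0.36 ± 0.24 (SE, adjusted p = 0.34) and -0.39 ± 0.22 (adjusted p = 0.27). Cdc25b stood at 192, 216.5 and 66.9 CPM in GFPhi and 292.5, 311.5 and 301.8 CPM in GFPlo libraries. Its groups did not overlap, but GFPhi replicate 3 lay far below the others, and the log2 fold change of -0.93 ± 0.41 was not called (adjusted p = 0.17).

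Of the 3 mitotic kinases (median -0.22, none called), Plk1, a kinase of mitotic entry and centrosome maturation, stood at 74.5, 84.8 and 51.1 CPM in GFPhi and 63.8, 88.5 and 92.3 CPM in GFPlo libraries. Aurka, which acts at the centrosomes and spindle, stood at 55.5, 66.1 and 36.8 CPM in GFPhi and 54.5, 70.1 and 72.2 CPM in GFPlo libraries. Aurkb, the kinase of the chromosomal passenger complex, stood at 86.3, 99.9 and 60.1 CPM in GFPhi and 78.4, 106 and 124.5 CPM in GFPlo libraries. In all 3 genes GFPlo replicate 1 lay below GFPhi replicates 1 and 2, so the groups overlapped. Birc5, which encodes the passenger protein survivin, stood at 83.2, 98.3 and 59.1 CPM in GFPhi and 79.2, 101 and 116 CPM in GFPlo libraries, with the same order. The 4 genes of the passenger complex had a median of -0.32 and a narrow range, from -0.36 for Incenp to -0.28 for Cdca8.

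The 8 genes of the spindle checkpoint and the APC/C held both ends of the group. Bub1, a checkpoint kinase, stood at 79.2, 94.8 and 60.5 CPM in GFPhi and 71.4, 96.1 and 117 CPM in GFPlo libraries. Cdc20 stood at 82.6, 92.8 and 63.1 CPM in GFPhi and 81.0, 104 and 109 CPM in GFPlo libraries. Neither separated the groups, with log2 fold changes of -0.28 ± 0.23 (adjusted p = 0.43) and -0.30 ± 0.17 (adjusted p = 0.28). Espl1 encodes separase, the protease that cuts cohesin at anaphase, and lies at chr15:102296266-102324357 (GRCm38, ENSMUSG00000058290). It stood at 96.9, 119 and 74.8 CPM in GFPhi and 152, 202 and 215.5 CPM in GFPlo libraries, without overlap. Its log2 fold change was -0.97 ± 0.205 (SE; edgeR quasi-likelihood, adjusted p = 0.031). Pttg1, whose product securin holds separase inactive, was the only gene with a higher mean in GFPhi cells, at 17.4, 16.1 and 13.0 CPM in GFPhi and 17.0, 15.2 and 13.4 CPM in GFPlo libraries (log2 fold change 0.03, adjusted p = 0.90). Mad2l1, a checkpoint protein that blocks CDC20, was the next highest of these 8 genes at -0.14. It stood at 72.1, 84.7 and 55.95 CPM in GFPhi and 62.4, 80.0 and 91.7 CPM in GFPlo libraries, with overlap.

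None of the 6 centromere and kinetochore genes was called (median -0.43, from -0.57 for Ndc80 to -0.33 for Cenpe), nor were the 8 kinesins (median -0.41) or the 7 spindle assembly genes (median -0.44). Nusap1, which bundles spindle microtubules, had the next largest difference after the 3 lowest genes, at -0.68 (adjusted p = 0.15). Hmmr, another gene of spindle assembly, was among the 3 smallest differences at -0.13, with 67.9, 80.6 and 40.7 CPM in GFPhi and 49.4, 71.9 and 86.0 CPM in GFPlo libraries. The 4 cytokinesis genes had the lowest median of the 9 roles, at -0.51. Racgap1 encodes a subunit of centralspindlin, which organises the midzone of the dividing cell, and lies at chr15:99620496-99651656 (ENSMUSG00000023015). It stood at 127, 144.5 and 80.8 CPM in GFPhi and 177, 236.5 and 261 CPM in GFPlo libraries, without overlap, with a log2 fold change of -0.94 ± 0.25 that missed the threshold (adjusted p = 0.054). Top2a stood at 908, 1045 and 583 CPM in GFPhi and 796, 1063 and 1262 CPM in GFPlo libraries. Mki67 stood at 1051, 1208 and 654.5 CPM in GFPhi and 949, 1261 and 1513 CPM in GFPlo libraries. These most abundant genes of the group overlapped between the populations, with log2 fold changes of -0.30 ± 0.26 (adjusted p = 0.45) and -0.35 ± 0.27 (adjusted p = 0.39).

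**Figure D2:**
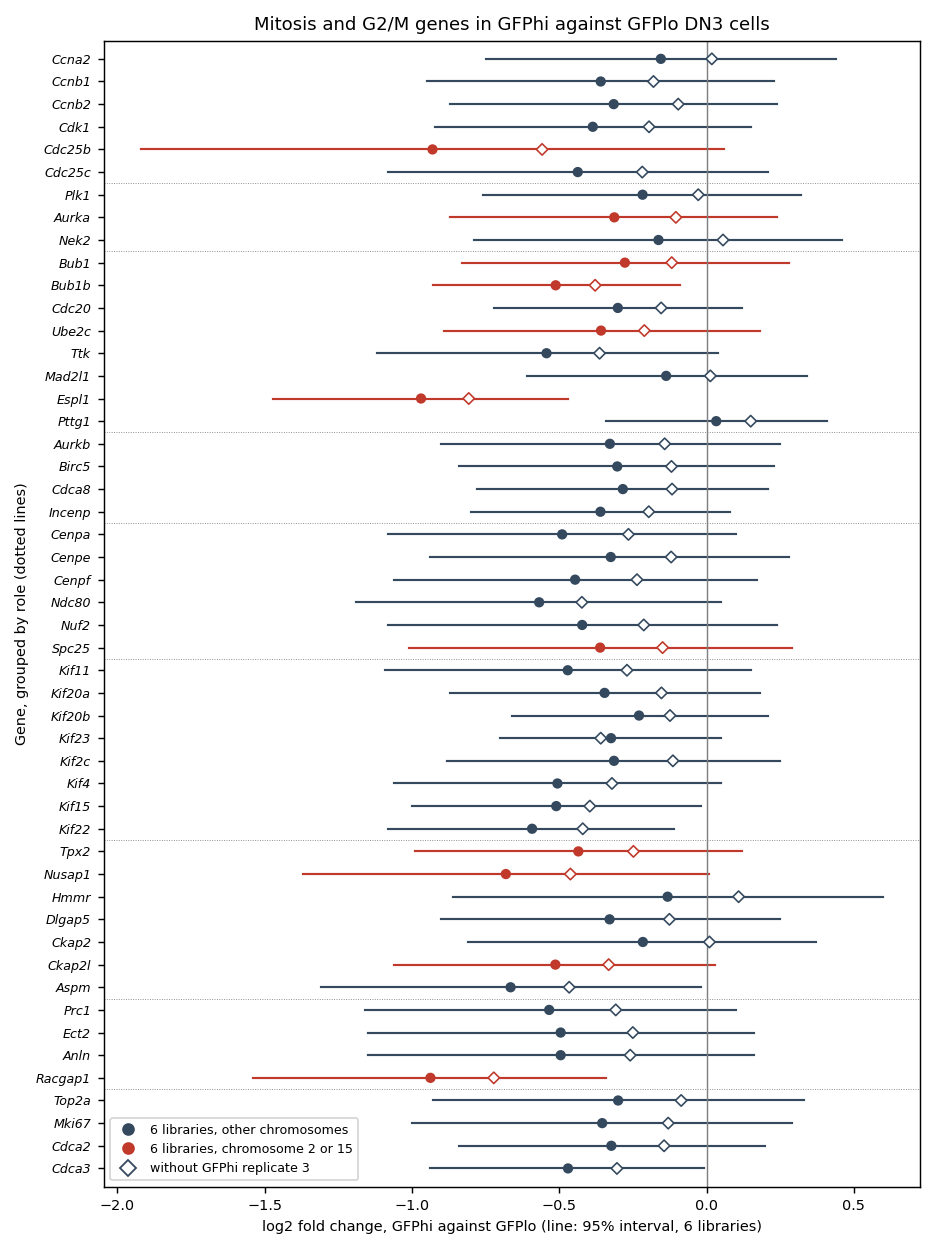
Log2 fold change of GFPhi against GFPlo cells for each of the 50 genes (filled circles, 6 libraries; lines are 95% intervals) and without GFPhi replicate 3 (open diamonds), with genes on chromosomes 2 and 15 in red. Nearly all circles lie left of 0, with Espl1 at -0.97 furthest from it, and 6 of the diamonds lie right of 0.

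Without GFPhi replicate 3, 44 of the 50 genes were lower in GFPhi cells, the median was -0.20, and 3 were called lower (Espl1, Racgap1 and Cdc25b), against a background of 21.7% of 11745 genes called lower and 19.5% higher. Espl1 was then at -0.81 (adjusted p = 0.0083), Racgap1 at -0.72 (adjusted p = 0.012) and Cdc25b at -0.56 (adjusted p = 0.0011). The role medians then ran from -0.30 for the kinesins to -0.03 for the mitotic kinases, with the cytokinesis genes at -0.28. Without GFPhi replicate 1, GFPlo replicate 2 or GFPlo replicate 3 none of the 50 was called, with Espl1 at -0.96 (adjusted p = 0.097), -0.92 (adjusted p = 0.13) and -0.87 (adjusted p = 0.11).

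These 3 genes lie on chromosomes 2 and 15, where genes as a whole were lower in GFPhi cells, with medians of -0.18 over 923 genes of chromosome 2 and -0.43 over 464 genes of chromosome 15, against 0.05 over the 10194 genes elsewhere. The 11 genes of the group on these chromosomes had a median of -0.51 and the other 39 a median of -0.35. Without GFPhi replicate 3 these medians were -0.33 and -0.15, beside -0.19 over all genes of chromosome 2, -0.43 over those of chromosome 15 and 0.04 elsewhere. Measured against the median gene of the group in the same library, Espl1 stood at 0.24, 0.33 and 0.35 (log2) in GFPhi and 0.91, 0.94 and 0.85 in GFPlo libraries. Racgap1 stood at 0.63, 0.61 and 0.46 in GFPhi and 1.13, 1.17 and 1.13 in GFPlo libraries on the same scale, and Cdc25b at 1.22, 1.2 and 0.19 in GFPhi and 1.86, 1.56 and 1.33 in GFPlo libraries. These genes thus lay above the median gene of the group in every library, and less far above it in every GFPhi library, GFPhi replicate 3 included, than in any GFPlo library. On this scale 13 of the 50 genes lay lower in every GFPhi than in every GFPlo library, 5 of the 11 on chromosomes 2 and 15 and 8 of the 39 others, while 7 lay higher, all of them on other chromosomes. The share over all genes was not counted on this scale, so these counts cannot be set against a background. The part of the chromosomes in the calls was not tested.

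Some markers of other cell types differed between the sorted populations and some overlapped. Double-positive thymocyte markers summed to 168 to 208 CPM in GFPlo libraries, with GFPhi replicate 3 at 77.2 CPM below and the other GFPhi libraries, up to 340 CPM, above all of them. Natural killer markers summed to 164 to 194 CPM in GFPhi and 87.8 to 109 in GFPlo libraries, nearly all of it Nkg7, with Ncr1 and Klrb1c under 1 CPM. B-lineage markers at 1 CPM or more numbered 7 of 8 in GFPhi and 3 of 8 in GFPlo cells, with summed levels of 28.6 to 50.2 and 25.3 to 28.8 CPM. Myeloid markers summed to 10.3 to 12.1 CPM in GFPhi and 15.4 to 16.4 CPM in GFPlo libraries, with Elane at 0. Thymic epithelial markers summed to 36.8 to 79.5 and 15.9 to 22.8 CPM, with 1 of 4 at 1 CPM or more (Epcam), and the erythroid sums overlapped, as the B-lineage sums did, at 2.12 to 8.01 and 4.30 to 10.5 CPM. Their part in the levels of the mitosis genes was not tested.

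Other genes of the cell cycle, from lists of names, also had negative medians. Of 68 further G2/M and mitosis genes, 5 were called lower and none higher (median -0.39), where 9.49% of all genes were called lower, among them the DNA glycosylase Neil3 at -1.15 and the condensin subunit Ncapd2 at -0.58. Of 56 S phase genes, 5 were called lower and none higher (median -0.28), among them the replication licensing factor Cdt1 at -0.65 and the thymidine kinase Tk1 at -0.58. Both shares were below the background. Without GFPhi replicate 3, 11 of the G2/M and 11 of the S phase genes were called lower (medians -0.21 and -0.17), where 21.7% of all genes were. The summed level of the 50 mitosis and G2/M genes was 6275, 7178 and 4201 CPM in GFPhi and 6170, 8072 and 9333 CPM in GFPlo libraries. That of the S phase genes was 8764, 9572 and 6956 CPM in GFPhi and 9035, 10644 and 11384 CPM in GFPlo libraries, with the libraries in nearly the same order. GFPlo replicate 1 lay beside GFPhi replicate 1 in both sums.

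**Figure D3:**
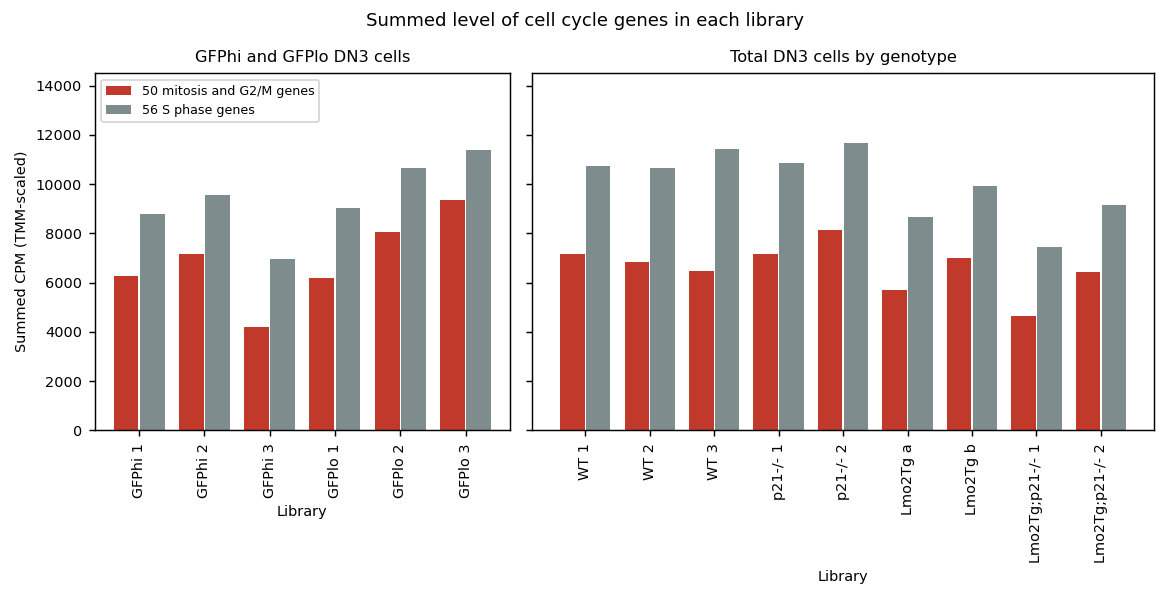
Summed CPM (linear axis from 0) of the 50 mitosis and G2/M genes (red) and of 56 S phase genes (grey) in each library. Both sums were lowest in GFPhi replicate 3 (4201 and 6956 CPM) within the first experiment and in Lmo2Tg;p21-/- replicate 1 (4649 and 7425 CPM) within the genotypes.

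Without the transgene, no gene of the group passed the threshold for the loss of p21. In p21-/- against WT cells, 44 of the 50 genes had a higher mean and the median was 0.09, against 0.00 over all 11840 genes, but none was called in edgeR's quasi-likelihood test, as with DESeq2, and 2 had an unadjusted p under 0.05. Only 13 genes in all (0.11%) were called in this comparison, Cdkn1a among them at -1.36 (adjusted p = 0.0082). The highest values in the group were those of the kinetochore genes Cenpf at 0.36 ± 0.19 and Cenpe at 0.34 ± 0.18 and of the spindle pole gene Aspm at 0.34 ± 0.13, and the lowest those of the kinesin gene Kif22 at -0.04 and of the APC/C genes Ube2c at -0.03 and Cdc20 at -0.02. Cenpf stood at 164, 151.5 and 107 CPM in WT and 167 and 195 CPM in p21-/- libraries. Aspm stood at 100.3, 96.2 and 80.5 CPM in WT and 114 and 120.0 CPM in p21-/- libraries. In both genes WT replicate 3 was the lowest of the 5 libraries. Adjusted p was at least 0.98 throughout. Without p21-/- replicate 2, the highest of the genotype libraries in 36 of the 50 genes, the median was -0.01, so the direction of the group rested on that library. The 95% interval of the log2 fold change ran from -0.07 to 0.58 for Mki67 and from -0.24 to 0.53 for Bub1, so changes of that size were within the error of 5 libraries.

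The transgene on the wild-type background went with lower means in 41 of the 50 genes, with a median of -0.14 against -0.01 over all genes. In Lmo2Tg against WT cells, 4 genes were called lower, where 16.9% of all genes were, and 2 higher, where 19.7% were. Ranges did not overlap for 16 genes lower in Lmo2Tg cells, against 31% of all genes. Both shares called were thus below the background. Ccnb1 stood at 79.7, 74.1 and 85.8 CPM in WT and 47.3 and 63.9 CPM in Lmo2Tg libraries (log2 fold change -0.52 ± 0.17, adjusted p = 0.035). The spindle checkpoint kinase gene Ttk stood at 33.3, 33.1 and 33.3 CPM in WT and 21.3 and 25.7 CPM in Lmo2Tg libraries (-0.50 ± 0.16, adjusted p = 0.030). Cdca2, which encodes a chromatin-bound regulator of protein phosphatase 1, stood at 58.6, 56.5 and 56.7 CPM in WT and 42.8 and 43.5 CPM in Lmo2Tg libraries (-0.41 ± 0.095, adjusted p = 0.0068), and Aspm fell by 0.38 on the log2 scale (adjusted p = 0.046). In each of these 4 genes both Lmo2Tg libraries lay below all WT libraries.

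Cdc25b (chr2:131186949-131198497, ENSMUSG00000027330) and Pttg1 (chr11:43420250-43426251, ENSMUSG00000020415) went the other way. Cdc25b stood at 63.4, 65.6 and 61.0 CPM in WT and 150.5 and 135 CPM in Lmo2Tg libraries, a 2.25-fold higher mean (log2 fold change 1.17 ± 0.09, edgeR quasi-likelihood adjusted p = 6.5e-06). Pttg1 stood at 9.81, 9.73 and 12.0 CPM in WT and 16.6 and 16.7 CPM in Lmo2Tg libraries, a 1.58-fold higher mean (0.66 ± 0.13, adjusted p = 0.0029). Cdc25b kept an adjusted p under 0.05 in this comparison under all alternatives and with each library left out, and so did Pttg1 and Cdca2. Cdc25b overlaps Spef1 on the other strand, and the genotype table appears from its name to have been counted without strand, so a part of its reads could come from that gene. Without WT replicate 1 or without Lmo2Tg library a 3 genes of the group were called in all, and without Lmo2Tg library b 13 were. Shares over all genes were not counted in these fits. With all libraries, the next highest gene was Cenpa, which encodes the histone H3 of centromeres, at 0.30 (adjusted p = 0.13). Cdkn1a itself fell by 0.47 (log2) in Lmo2Tg against WT cells (adjusted p = 0.040).

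The anchor genes of the other roles lay between these extremes in Lmo2Tg cells. Plk1 stood at 78.3, 81.3 and 83.8 CPM in WT and 47.2 and 71.8 CPM in Lmo2Tg libraries, and Aurkb at 86.8, 88.7 and 100.1 CPM in WT and 61.9 and 79.7 CPM in Lmo2Tg libraries. Cdk1 stood at 96.8, 87.7 and 108 CPM in WT and 70.2 and 85.8 CPM in Lmo2Tg libraries. In these 3 genes both Lmo2Tg libraries were below all WT libraries, without passing the threshold (adjusted p = 0.090, 0.071 and 0.087). Aurka stood at 49.3, 51.8 and 57.0 CPM in WT and 38.9 and 51.1 CPM in Lmo2Tg libraries, Cdc20 at 99.3, 103 and 105 CPM in WT and 72.6 and 103.0 CPM in Lmo2Tg libraries, and Birc5 at 82.3, 86.6 and 95.7 CPM in WT and 72.6 and 98.1 CPM in Lmo2Tg libraries. Bub1 stood at 95.7, 92.5 and 85.2 CPM in WT and 79.8 and 103 CPM in Lmo2Tg libraries. For Aurka, Cdc20, Birc5 and Bub1 one Lmo2Tg library was below the WT libraries and the other within or above them. Top2a stood at 1056, 982.5 and 926.5 CPM in WT and 815 and 1051 CPM in Lmo2Tg libraries, and Mki67 at 1400, 1299 and 1037 CPM in WT and 1097 and 1251 CPM in Lmo2Tg libraries, with log2 fold changes of -0.08 and -0.09.

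On the p21-/- background more genes of the group passed the threshold, while the difference between the transgene's effects, tested as an interaction further on, passed it for none. In Lmo2Tg;p21-/- against p21-/- cells, 48 of the 50 genes had a lower mean, with a median of -0.47 against 0.00 over all genes. Here 24 were called lower, where 14.4% of all genes were, and 2 higher, where 16.3% were. Ranges did not overlap for 42 genes lower in Lmo2Tg;p21-/- cells, against 35.4% of all genes. Called lower were 4 of 6 genes of the cyclin-CDK1 engine, 1 of 3 mitotic kinases, 4 of 8 of the spindle checkpoint and APC/C, 2 of 4 of the passenger complex, 5 of 8 kinesins, 3 of 7 of spindle assembly, 1 of 4 of cytokinesis and 4 of 4 chromatin and proliferation markers. None of the 6 centromere and kinetochore genes was called, although all 6 were lower (median -0.45) and 5 had an unadjusted p under 0.05.

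Ccnb1 stood at 84.0 and 90.4 CPM in p21-/- and 40.7 and 63.0 CPM in Lmo2Tg;p21-/- libraries (log2 fold change -0.75 ± 0.185, adjusted p = 0.011). Cdca2 stood at 63.0 and 68.7 CPM in p21-/- and 35.7 and 43.8 CPM in Lmo2Tg;p21-/- libraries (-0.73 ± 0.10, adjusted p = 4e-04). Ccna2, which encodes cyclin A2, stood at 186.5 and 207 CPM in p21-/- and 97.1 and 145 CPM in Lmo2Tg;p21-/- libraries (-0.70 ± 0.18, adjusted p = 0.014). These 3 genes had the lowest log2 fold changes of the group, and in each of them Lmo2Tg;p21-/- replicate 1 was the lower of its pair. Cdk1 stood at 96.7 and 104 CPM in p21-/- and 59.1 and 79.3 CPM in Lmo2Tg;p21-/- libraries, and fell by 0.53 on the log2 scale (adjusted p = 0.019). Mki67 stood at 1394 and 1582 CPM in p21-/- and 853 and 1141 CPM in Lmo2Tg;p21-/- libraries, and fell by 0.58 (adjusted p = 0.020). Top2a stood at 1084 and 1243 CPM in p21-/- and 712 and 972 CPM in Lmo2Tg;p21-/- libraries, and fell by 0.47 (adjusted p = 0.043). Both transgenic libraries lay below both p21-/- libraries in all of these.

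Bub1 stood at 88.9 and 112 CPM in p21-/- and 49.9 and 79.0 CPM in Lmo2Tg;p21-/- libraries (-0.64, adjusted p = 0.029). Aurka stood at 51.9 and 59.2 CPM in p21-/- and 32.6 and 44.3 CPM in Lmo2Tg;p21-/- libraries (-0.53, adjusted p = 0.029). Aurkb stood at 90.8 and 96.5 CPM in p21-/- and 52.3 and 75.3 CPM in Lmo2Tg;p21-/- libraries (-0.55, adjusted p = 0.026). These 3 kinase genes thus passed the threshold, as did Ccnb1, Cdk1, Mki67 and Top2a, whereas Plk1, Cdc20 and Birc5 missed it. Plk1 stood at 79.8 and 85.8 CPM in p21-/- and 43.8 and 69.6 CPM in Lmo2Tg;p21-/- libraries (-0.54, adjusted p = 0.069). Cdc20 stood at 96.0 and 106 CPM in p21-/- and 57.9 and 87.7 CPM in Lmo2Tg;p21-/- libraries (-0.47, adjusted p = 0.076). Birc5 stood at 81.1 and 99.0 CPM in p21-/- and 55.0 and 76.0 CPM in Lmo2Tg;p21-/- libraries (-0.46, adjusted p = 0.068), so that in all 3 the libraries did not overlap but the replicates of a group spread widely.

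The remaining genes called lower were the checkpoint genes Ttk, Bub1b and Mad2l1, the cyclin gene Ccnb2, the passenger gene Cdca8, the kinesin genes Kif4, Kif11, Kif20a, Kif20b and Kif23, the spindle genes Ckap2l, Aspm and Tpx2, the midzone gene Prc1 and Cdca3, whose product promotes mitotic entry. Their log2 fold changes ran from -0.63 for Cdca3 to -0.34 for Kif20b, with adjusted p from 0.010 to 0.047. The lowest of the genes not called was Plk1, and the smallest difference was that of the cytokinesis gene Ect2 at -0.20 (adjusted p = 0.28). Kif20a overlaps Cdc23, Kif4 overlaps Pdzd11, Prc1 overlaps Rccd1, Ccna2 overlaps Exosc9 and Cdca8 overlaps 9930104L06Rik on the other strand, and Kif11 has a pseudogene within it, so their counts are uncertain where reads could be shared.

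Cdc25b and Pttg1 again rose. Cdc25b stood at 61.9 and 74.3 CPM in p21-/- and 143 and 155 CPM in Lmo2Tg;p21-/- libraries, 2.19-fold higher (log2 fold change 1.13 ± 0.10, adjusted p = 2e-05). Pttg1 stood at 11.1 and 10.8 CPM in p21-/- and 15.6 and 17.4 CPM in Lmo2Tg;p21-/- libraries, 1.51-fold higher (0.59 ± 0.15, adjusted p = 0.011). Against the median gene of the group in the same library, Cdc25b lay at -0.56 to -0.40 (log2) in the 5 libraries without the transgene and at 0.50 to 1.37 in the 4 with it. Pttg1 lay at -3.16 to -2.90 in the former and at -2.49 to -1.82 in the latter. Both genes were thus higher within the group in every transgenic library. All 6 genes called in Lmo2Tg against WT cells were called in the same direction in Lmo2Tg;p21-/- against p21-/- cells. These were 6 of the 26 called there (23.1%). The groups compared have no library in common, but the spread was estimated over all genotype libraries at once. The calls are thus not independent, and the share over all genes was not counted.

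**Figure D4:**
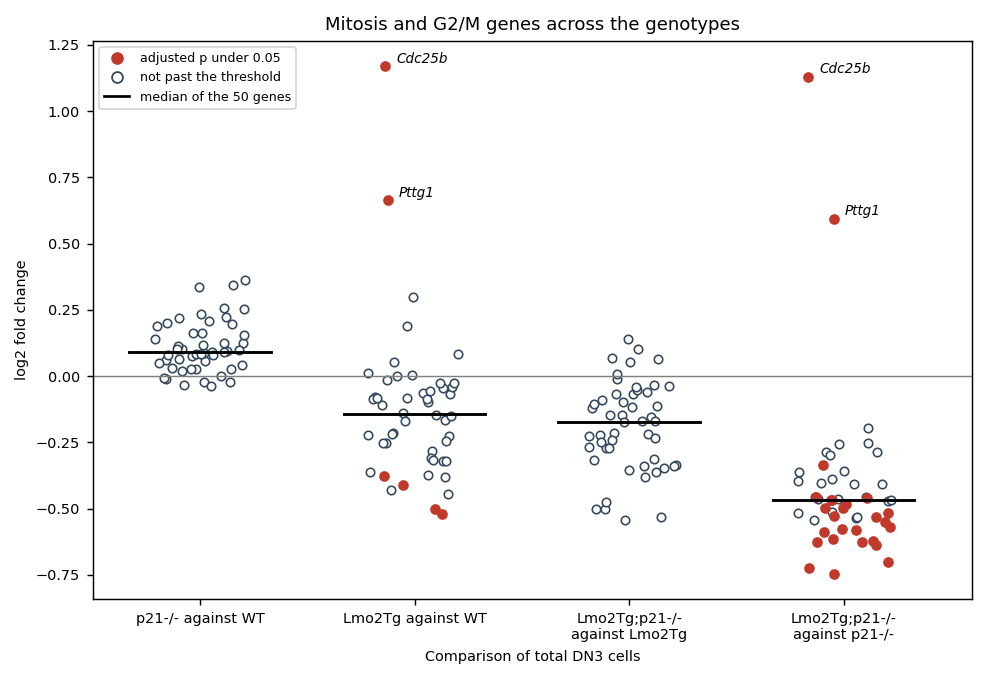
Log2 fold change of each of the 50 genes (points; filled red where adjusted p was under 0.05) in 4 comparisons of total DN3 cells, with the median as a black line; points are spread sideways for legibility. The medians were 0.09, -0.14, -0.17 and -0.47, and Cdc25b and Pttg1 stood above the rest in both comparisons of mice with and without the transgene.

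The number called rested on single libraries. Without Lmo2Tg;p21-/- replicate 1, which was the lowest library of the genotypes in 47 of the 50 genes, 1 gene was called lower (Cdca2 at -0.60, adjusted p = 0.0039), where 6.56% of all genes were, and 2 higher (Cdc25b and Pttg1), and the median was -0.27. More genes were called without Lmo2Tg;p21-/- replicate 2 and fewer without p21-/- replicate 2. Each of these 3 fits leaves 1 library in a group. Double-positive thymocyte markers summed to 33.5 to 54.2 CPM in the libraries without and 81.4 to 154 CPM in those with the transgene, while DN3 markers summed to 11100 to 11900 and 8850 to 9830 CPM, B-lineage markers to 31.2 to 41.9 and 19.7 to 25.3 CPM, and thymic epithelial markers, Epcam again, to 41.2 to 57.0 and 14.1 to 19.6 CPM. Myeloid, erythroid and natural killer markers overlapped between these libraries. Their part in the levels of the mitosis genes was not tested.

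Loss of p21 in Lmo2Tg cells went with lower means in 44 of the 50 genes, with a median of -0.17 against 0.02 over all genes. None of the 50 was called in Lmo2Tg;p21-/- against Lmo2Tg cells, where 6.94% of all genes were, in edgeR's quasi-likelihood test, and 3 were with DESeq2. The share over all genes was not counted with DESeq2. In edgeR's test unadjusted p was under 0.05 for 8, and the share over all genes at that level was not counted. Ranges did not overlap for 6 genes (Bub1, Cdca3, Cdca8, Cenpa, Ckap2 and Kif4, all lower without p21), against 25.7% of all genes. Cdca8, which encodes the passenger protein borealin, stood at 84.9 and 117 CPM in Lmo2Tg and 57.2 and 80.8 CPM in Lmo2Tg;p21-/- libraries (-0.54 ± 0.18, adjusted p = 0.095). Cenpa stood at 82.8 and 101 CPM in Lmo2Tg and 55.7 and 71.4 CPM in Lmo2Tg;p21-/- libraries (-0.53 ± 0.16, adjusted p = 0.076). Cdca3 stood at 74.0 and 97.7 CPM in Lmo2Tg and 50.03 and 70.9 CPM in Lmo2Tg;p21-/- libraries (-0.50 ± 0.18, adjusted p = 0.11). These 3 genes had the lowest values, and the highest were Aspm at 0.14, Nusap1 at 0.10 and Kif20b at 0.07. Cdc25b, at 0.06, and Pttg1, at -0.01, differed little between these groups. Without Lmo2Tg;p21-/- replicate 1 the median was 0.01, with 23 genes lower and 27 higher, so the direction of the group rested on that library.

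The loss of p21 thus had a median of 0.09 without the transgene and -0.17 with it. The direction of the former rested on p21-/- replicate 2 and that of the latter on Lmo2Tg;p21-/- replicate 1, and the interaction takes in both libraries. The difference between these effects, tested as an interaction, was negative in 49 of the 50 genes with a median of -0.32, but none was called in edgeR's quasi-likelihood test or with DESeq2. Over all genes, 1.38% were called. Unadjusted p was under 0.05 for 6 of the 50, and the share over all genes at that level was not counted. The lowest were Cdca8 at -0.66 ± 0.24 and Cenpa at -0.60 ± 0.22 (adjusted p = 0.19 for both) and Bub1 at -0.64 ± 0.26 (adjusted p = 0.23), and the highest the kinetochore gene Nuf2 at 0.01, the kinesin gene Kif2c at -0.03 and Cdc25b at -0.04. For Mki67 the interaction was -0.49, with a 95% interval from -0.97 to -0.01 and an adjusted p of 0.27.

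The other lists had negative medians where the group did in the transgene comparisons. Of 68 further G2/M and mitosis genes, 12 were called lower in Lmo2Tg against WT cells (median -0.19), where 16.9% of all genes were, with the cyclin F gene Ccnf lowest at -1.16 and the mitotic inhibitor kinase gene Wee1 at -0.38. In Lmo2Tg;p21-/- against p21-/- cells 40 were called lower (median -0.46), where 14.4% of all genes were, with Fam64a lowest at -0.88. Of 56 S phase genes, 16 and 42 were called lower in these comparisons (medians -0.24 and -0.44), with the exonuclease gene Exo1 lowest in both at -0.63 and -0.78. The share of G2/M genes in Lmo2Tg against WT cells was near the background. Without Lmo2Tg;p21-/- replicate 1, 6 of the G2/M and 8 of the S phase genes were called lower against p21-/- cells (medians -0.28 and -0.32), where 6.56% of all genes were. No gene of either list was called higher in any comparison. None was called in p21-/- against WT, in Lmo2Tg;p21-/- against Lmo2Tg or in the interaction. There unadjusted p was under 0.05 for 3, 18 and 12 of the G2/M genes and for 0, 11 and 6 of the S phase genes. The shares over all genes at that level were not counted, so these counts cannot be set against a background. The summed level of the 50 genes was 7161, 6828 and 6478 CPM in WT, 7140 and 8152 CPM in p21-/-, 5706 and 6994 CPM in Lmo2Tg, and 4649 and 6412 CPM in Lmo2Tg;p21-/- libraries. The S phase genes summed to 10660 to 11649 CPM in the libraries without and 7425 to 9901 CPM in those with the transgene, without overlap, whereas the sums of the mitosis and G2/M genes overlapped, with 1 Lmo2Tg library above 2 of the WT libraries.

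The promoter matches can be set beside the differences in level as a description. In Lmo2Tg;p21-/- against p21-/- cells the median log2 fold change was -0.47 for the 34 genes with a CHR in the window and -0.47 for the 8 without (-0.27 and -0.26 without Lmo2Tg;p21-/- replicate 1), and in Lmo2Tg against WT cells -0.12 and -0.16. In GFPhi against GFPlo cells the medians were -0.46 and -0.31, and -0.25 and -0.12 without GFPhi replicate 3, with Espl1, Racgap1 and Cdc25b among the 34.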

How the data were processed

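RNA-seq of sorted DN3 thymocytes was read from the count tables of the GFP experiment (6 libraries) and of the genotypes (9 libraries). The tables hold whole-number counts per gene as the authors deposited them, not normalized. The submitters' notes name STAR 2.4.2a, featureCounts, limma and the mm10 build, without their roles. The names of the tables point to counting by reverse strand in the GFP and without strand in the genotype table, and no other source used here states it. A column with no matching sample label (1 in number) was not used, and the p21-/- replicate without a usable column was not analysed here. Of 22114 genes, 21721 (98.2%) were matched by identifier to GENCODE M21, which gave positions and exon lengths (GRCm38).

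Each table was fitted on its own in R 4.3.3 with edgeR 4.0.16 (quasi-likelihood test, TMM scaling, filterByExpr with a minimum count of 10 and minimum total of 15), over all its libraries with a mean per group. P-values were adjusted over all genes of a comparison by Benjamini-Hochberg, and a gene was called at an adjusted p under 0.05. Errors are standard errors of log2 fold changes, and intervals are 95% t intervals. The scripts were tested on simulated data. The floor of 3 counts was 0.0966 to 0.112 CPM in the GFP and 0.176 to 0.222 CPM in the genotype libraries, for counting error only.

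The genes with values in every library were Mki67, Ccnb1, Cdk1, Plk1, Aurka, Aurkb, Bub1, Top2a, Cdc20 and Birc5. Named besides were the 3 lowest and 3 highest of each comparison and every called gene, with Cdkn1a, Lmo2 and called or extreme genes of the other lists. Nusap1 and the genes without overlap were named after their values were seen. The members and lists were chosen with earlier results of these data known. Libraries were pools of mice. Per the paper the GFP libraries came from independent cohorts, which the labels do not tie to replicate numbers. No source used here says this of the genotypes, where p-values measure the spread between these libraries, which may be technical. The medians and calls of lists without a library were added after the data were seen. Alternatives were DESeq2 1.42.0, limma-voom (limma 3.58.1), DESeq2's size factors, no filter, a call at a fold above 2 and adjusted p under 0.01, scaling without chromosomes 2 and 15, fits of only the compared groups, the replicate number as a block and leaving out each library.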

Additional observations from a re-analysis of the deposited data

How the results depend on the processing

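The direction of the group's median in each comparison was kept in all fits run, except that it was 0.01 in Lmo2Tg;p21-/- against Lmo2Tg cells without Lmo2Tg;p21-/- replicate 1 and -0.01 in p21-/- against WT cells without p21-/- replicate 2. Of the medians under an alternative, 67 lay within the spread of the libraries, and those without Lmo2Tg;p21-/- replicate 2 moved, to -0.46 in Lmo2Tg;p21-/- against Lmo2Tg cells, -0.79 in Lmo2Tg;p21-/- against p21-/- cells and -0.59 in the interaction. The number of the 50 genes called was less stable, and the cause was not tested. Shares over all genes were counted only for the main fits, and without GFPhi replicate 3 or Lmo2Tg;p21-/- replicate 1. Counts under the other alternatives thus cannot be set against a background. In p21-/-, Lmo2Tg and Lmo2Tg;p21-/- cells, leaving out a library left the group with 1. With DESeq2 the number called was 4 in GFPhi against GFPlo, 11 in Lmo2Tg against WT and 3 in Lmo2Tg;p21-/- against Lmo2Tg cells. With no filter it was 12 in Lmo2Tg against WT and 3 in Lmo2Tg;p21-/- against Lmo2Tg cells, and with only the compared groups in the fit 10 in Lmo2Tg against WT cells. At a fold above 2 and an adjusted p under 0.01 it was 0 in GFPhi against GFPlo, 1 in Lmo2Tg against WT and 1 in Lmo2Tg;p21-/- against p21-/- cells. Leaving out single libraries gave 0 to 3 calls in GFPhi against GFPlo, 3 to 13 in Lmo2Tg against WT, 0 to 1 in Lmo2Tg;p21-/- against Lmo2Tg and 2 to 47 in Lmo2Tg;p21-/- against p21-/- cells.

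Samples share only replicate numbers: deviations of same-numbered libraries correlated at 0.07, -0.08 and 0.10 in GFPhi and GFPlo, at -0.28 and 0.31 in WT and p21-/-, and at 0.07 and 0.07 in p21-/- and Lmo2Tg;p21-/-. With the replicate block in edgeR's quasi-likelihood fit, the calls were 0 in GFPhi against GFPlo (Espl1 at -0.98, adjusted p = 0.086) and 0 in p21-/- against WT. In a fit chosen after seeing the data they were 47 in Lmo2Tg;p21-/- against p21-/- cells (45 lower, 2 higher). Shares over all genes were not counted with the block. Ube2c in p21-/- against WT turned to 0.03 with it.

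Of the values of named genes under an alternative, 718 kept their direction and their side of the threshold, 108 missed the threshold, 14 newly passed it and 22 turned sign, all of them in genes that were not called in that comparison. With single libraries left out, the log2 fold changes of GFPhi against GFPlo ran from -0.28 to 0.01 for Mad2l1, -0.35 to 0.11 for Hmmr and -0.05 to 0.15 for Pttg1. Those of p21-/- against WT ran from -0.10 to 0.01 for Kif22, -0.23 to 0.13 for Ube2c and -0.09 to 0.04 for Cdc20. The interaction ran from -0.16 to 0.10 for Cdc25b, -0.38 to 0.22 for Kif2c and -0.27 to 0.21 for Nuf2, and Lmo2Tg;p21-/- against Lmo2Tg from -0.09 to 0.18 for Kif20b, -0.17 to 0.31 for Nusap1 and -0.12 to 0.34 for Aspm. Pttg1 missed the threshold in Lmo2Tg;p21-/- against p21-/- cells without p21-/- replicate 2 (adjusted p = 0.062) and without Lmo2Tg;p21-/- replicate 2 (adjusted p = 0.069). Each gene was counted at least 103 times per library. Counting error was not set against the spread between libraries, and may weigh more in genes of few counts such as Cdc25c and Pttg1. The 95% intervals were wide, such as -0.07 to 0.58 for Mki67 in p21-/- against WT cells.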
